A study of Mus musculus with 8 samples.

Results

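The mitochondrial ribosomal protein genes are the nuclear genes whose symbols begin with Mrpl or Mrps followed by a digit, named for the large and the small subunit of the ribosome inside mitochondria. That symbol rule took 78 of the 25655 gene rows of the table, 49 Mrpl and 29 Mrps, and used no measured value. All 78 had enough reads to be tested, as had 9810 rows of the whole table. The samples were gastrocnemius, a calf muscle, from male wild-type (WT) mice at day 4. There were 3 sepsis samples, from mice that received cecal slurry, gut contents that set off infection of the abdomen by many kinds of bacteria, and 5 control samples, from mice given 10% glycerol. The labels name no strain, age or injected volume, and do not say whether each sample is a different mouse, so every p-value refers to the spread among the samples and no further.

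Mitochondria keep a small genome of their own that encodes core subunits of the respiratory chain, ribosomal RNAs and transfer RNAs, but no ribosomal protein. Every protein of the mitochondrial ribosome, or mitoribosome, is therefore made in the cytosol from a nuclear gene, imported, and assembled with ribosomal RNA transcribed inside the organelle. The large subunit forms peptide bonds and feeds the new chain to the inner membrane through its exit tunnel, and the small subunit holds and decodes the messenger RNA. Skeletal muscle is rich in mitochondria, and its fibres depend on these ribosomes for the mitochondrial share of complexes I, III, IV and ATP synthase.

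Libraries held 3337851 to 3765726 reads in sepsis and 3086277 to 4016329 reads in controls, each read coming from near the 3′ end of a polyadenylated transcript. Levels are given as CPM, reads scaled to a common library size by the TMM method (trimmed means of log ratios), and since each transcript gives about 1 read wherever it ends, CPM were not divided by length. The summed CPM of the 10 skeletal muscle markers was 71420 to 101400 in sepsis and 159500 to 189400 in controls. All 10 passed the test and were lower in sepsis under TMM scaling. With library totals alone, Myh4, Myh1 and Ryr1 did not pass, at edgeR adjusted p of 0.221, 0.154 and 0.317. The summed CPM of 6 fibroblast markers was 277.9 to 412.8 in sepsis and 1282 to 2783 in controls. Neutrophil markers summed to 62.8 to 140.0 CPM in sepsis, against 0.904 to 3.82 CPM in controls, with 1 of them at no reads in any control. The broad leukocyte markers summed to 246.0 to 417.4 CPM in sepsis and 60.4 to 152.1 CPM in controls. Of 8 tested, 5 were higher under TMM scaling, beside 25.2% of all genes, and Csf1r, Laptm5 and Tyrobp did not pass. Cd68 and Lyz2 had the highest means in sepsis, at 109.6 and 115.2 CPM, against 3.60 and 31.5 CPM in controls. Lymphocyte markers were near 0, at up to 0.63 CPM in sepsis and 1.21 CPM in controls. The messenger RNAs of the mitochondrial genome took 14.5 ± 2.19% of reads in sepsis (SD, n = 3) and 23.6 ± 1.89% in controls (SD, n = 5). In bulk muscle, fewer cells of a type and less RNA per cell cannot be told apart. The part of these shifts in the results on mitoribosome genes was not tested.

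Of the 78 genes, 40 fell in sepsis, 5 rose and 33 did not pass edgeR's quasi-likelihood test at a Benjamini-Hochberg adjusted p of 0.05. Across all genes tested, 50.4% passed, 25.2% higher and 25.2% lower. The members thus held a share of lower calls, 51.3%, well above the background of 25.2%, and a share of higher calls, 6.41%, well below it. Their median log2 fold change, sepsis minus control, was -0.39, beside 0.01 over all genes tested, with a lower quartile of -0.90 and an upper quartile of -0.02. Falls of at least 2-fold were found for 16 members, against 14.2% of all genes, and a rise of that size for 1 member, against 11.8% of all genes. For 43 members all 3 sepsis samples lay below all 5 controls, for 5 they lay above, and for 30 the groups overlapped. Over all genes tested, the groups were separate for 47.5%, with sepsis lower in 24.3% and higher in 23.1%.

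These directions depended on how libraries were scaled. With library totals alone, without the TMM step, the median over all genes was 0.43 in place of 0.01, and the members' median was 0.03 in place of -0.39. Relative to all genes the members' median was -0.40 under either scaling. A change of scaling moves all genes by nearly the same amount, so this value could hardly have differed. By library totals 18 members were lower and 18 higher, while 14.1% of all genes were lower and 43.4% higher. All 18 of those lower calls were among the 40, and the 5 genes that rose under TMM also rose by library totals. In shares of all reads, the members took 0.309%, 0.316% and 0.269% in the sepsis libraries and 0.313% to 0.327% in the control libraries. These shares overlapped between the groups.

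**Figure D1:**
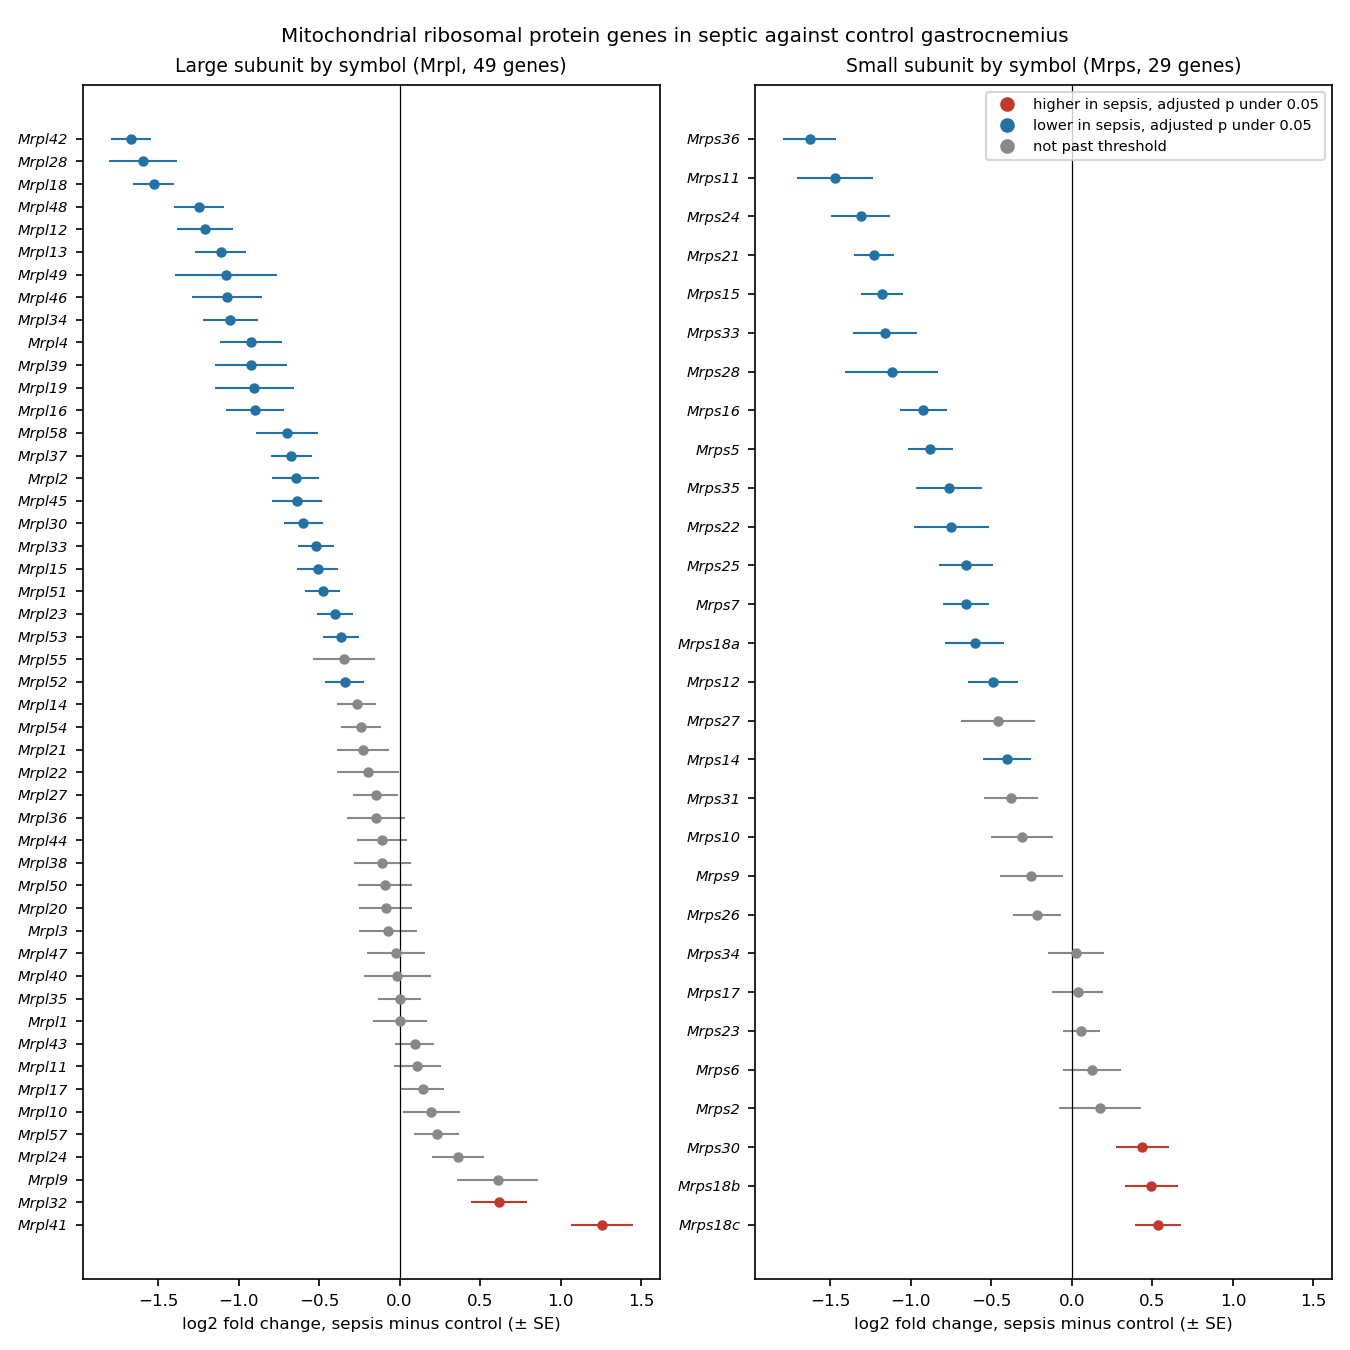
Log2 fold changes (sepsis minus control, TMM scaling, horizontal axis) of each of the 49 Mrpl genes (left) and 29 Mrps genes (right), sorted from lowest at the top, with bars of 1 SE. Most points lie left of 0, with Mrpl42 lowest at -1.67 and Mrpl41 highest at 1.26, and 5 genes are marked as higher. With library totals alone all points shift to the right, the members' median from -0.39 to 0.03.

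The lowest value among the 78 belonged to Mrpl42 (ENSMUSG00000062981), a large subunit protein with no bacterial counterpart. Its level was 70.2, 59.9 and 50.5 CPM in the sepsis libraries, against 191.5, 191.2, 193.0, 184.4 and 196.3 CPM in the controls. Every sepsis sample lay far below every control, and the controls differed by little. The fall was 3.18-fold (log2 fold change -1.67, SE 0.13, edgeR adjusted p = 3.36e-07), and by library totals the log2 value was -1.25. Mrpl42 was also the second most abundant of the large subunit genes by mean log2 CPM.

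Mrpl28, a homologue of bacterial L28, had 6.65, 8.61 and 5.25 CPM in sepsis and 17.2, 22.6, 21.1, 18.8 and 24.2 CPM in controls. The groups were well apart at these lower levels, and the log2 fold change was -1.59 (SE 0.21, edgeR adjusted p = 4.18e-05). Mrpl18 sits in the central protuberance, the knob at the top of the large subunit where bacterial ribosomes carry 5S RNA. It had 37.5, 43.7 and 32.9 CPM in sepsis, against 102.4, 108.3, 110.8, 112.8 and 115.0 CPM in controls, again without overlap. Its log2 fold change was -1.53 (SE 0.13, edgeR adjusted p = 8.5e-07). Mrpl48, another central protuberance protein, averaged lower by 2.37-fold, with 28.7, 27.5 and 19.4 CPM in sepsis and 53.9, 66.9, 54.8, 63.7 and 59.6 CPM in controls. The sepsis samples again lay below all controls (log2 fold change -1.24, SE 0.16, edgeR adjusted p = 2.51e-05).

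Mrpl12 forms the flexible stalk that recruits the elongation factors, as its relative L7/L12 does in bacteria. It had 53.7, 40.1 and 28.99 CPM in sepsis and 84.7, 107.0, 88.2, 94.0 and 98.1 CPM in controls. The groups did not overlap, although the sepsis samples were spread widely, and the log2 fold change was -1.21 (SE 0.18, edgeR adjusted p = 8.74e-05). Neither protein of the stalk base passed. Mrpl10, which anchors the Mrpl12 copies, had 27.9, 22.9 and 18.5 CPM in sepsis and 21.1, 15.7, 21.1, 20.3 and 22.3 CPM in controls (log2 fold change 0.20, SE 0.18, edgeR adjusted p = 0.374). Mrpl11, beside it at the base, had 42.3, 37.4 and 38.6 CPM in sepsis and 36.9, 29.5, 40.7, 32.6 and 42.7 CPM in controls (log2 fold change 0.11, SE 0.15, edgeR adjusted p = 0.554). The groups overlapped for both. The stalk thus held 1 lower call among 3 proteins, too few to read against the 25.2% of all genes that were lower. By library totals both passed upward, with log2 fold changes of 0.61 for Mrpl10 and 0.53 for Mrpl11, and Mrpl12 stayed lower at -0.79.

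Around the mouth of the exit tunnel, Mrpl45 holds the ribosome to the inner membrane. It had 37.2, 42.6 and 26.9 CPM in sepsis, against 59.4, 58.1, 49.7, 49.9 and 59.9 CPM in controls. All sepsis samples were below all controls, by a log2 fold change of -0.64 (SE 0.16, edgeR adjusted p = 0.00437). By library totals its log2 value was -0.21 and its adjusted p 0.307. Its neighbours at the rim lay on both sides of the controls. Mrpl23 had 65.2, 68.9 and 63.9 CPM in sepsis and 79.4, 92.3, 84.3, 92.9 and 86.7 CPM in controls (log2 fold change -0.40, SE 0.11, edgeR adjusted p = 0.00884, and 0.02 by library totals). Mrpl24 had 38.8, 38.7 and 44.1 CPM in sepsis and 27.8, 33.0, 35.5, 38.3 and 23.3 CPM in controls, with all sepsis samples above all controls but an edgeR adjusted p of 0.0805, or 0.0477 without control 4. Of the 5 rim proteins, which include Mrpl22 and Mrpl47, 2 were lower, beside 25.2% of all genes, and their median log2 fold change was -0.20. Of 6 central protuberance proteins 3 were lower, Mrpl18, Mrpl46 and Mrpl48, and 3 did not pass, with a median of -0.71. These positions on the ribosome were grouped after the values were seen.

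The most abundant large subunit gene was Mrpl51, a protein without a bacterial counterpart, with 152.4, 126.7 and 142.5 CPM in sepsis and 202.9, 194.3, 178.3, 203.2 and 200.1 CPM in controls. The groups did not overlap, and the log2 fold change of -0.48 (SE 0.11) had an edgeR adjusted p of 0.00218. The third most abundant, Mrpl33, had 76.3, 77.9 and 71.0 CPM in sepsis and 96.3, 111.1, 112.9, 106.3 and 112.2 CPM in controls (log2 fold change -0.52, SE 0.11, edgeR adjusted p = 0.00153). The fourth, Mrpl53, had 76.9, 65.5 and 80.1 CPM in sepsis and 98.3, 95.4, 97.9, 92.2 and 94.0 CPM in controls (log2 fold change -0.37, SE 0.11, edgeR adjusted p = 0.0148). By library totals these 3 genes had log2 fold changes of -0.07, -0.10 and 0.05, none of them past the threshold. Their calls were thus lost by library totals, unlike those of Mrpl42, Mrpl28, Mrpl18, Mrpl48, Mrpl12 and Mrpl13, which were lower by both. All 3 stayed lower with relative log expression factors, another way to scale libraries, and with DESeq2. The call of Mrpl53 was also lost without the filter on low counts. Mrpl13, a homologue of bacterial L13 that takes part in early folding of the subunit there, had 16.2, 14.5 and 13.9 CPM in sepsis, against 33.0, 27.9, 31.0, 37.97 and 30.9 CPM in controls.

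Mrpl58 is a peptidyl-tRNA hydrolase that frees stalled chains and is also built into the large subunit. It had 18.9, 15.6 and 13.0 CPM in sepsis and 24.4, 32.3, 19.9, 27.8 and 23.9 CPM in controls, where the highest sepsis sample came close to the lowest control (log2 fold change -0.70, SE 0.19, edgeR adjusted p = 0.00849). By library totals it did not pass, at -0.29 with an adjusted p of 0.23. Mrpl52, without a bacterial counterpart, had 34.3, 37.8 and 35.2 CPM in sepsis and 47.2, 42.4, 49.1, 43.4 and 44.3 CPM in controls. Its groups were separate but its call was narrow (log2 fold change -0.34, SE 0.12, edgeR adjusted p = 0.0323), and it was lost without sepsis sample 1 or 3 or without control 1, 3, 4 or 5, with adjusted p up to 0.0777.

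Near the middle of the scale, 4 members had log2 fold changes nearest to 0. They were Mrpl35 and Mrpl1 at 0.00, Mrpl40 at -0.01 and Mrpl47 at -0.02, with SE of 0.13, 0.17, 0.21 and 0.18. Mrpl35 had 39.6, 36.8 and 38.4 CPM in sepsis and 36.6, 39.6, 45.2, 34.7 and 34.7 CPM in controls, so that the groups interleaved. The sign of all 4 depended on the settings. By library totals Mrpl40 and Mrpl47 were at 0.41 and 0.39 and did not pass. Mrpl35 and Mrpl1 were at 0.42 and 0.41 and passed as higher, at edgeR adjusted p of 0.0141 and 0.0374.

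**Figure D2:**
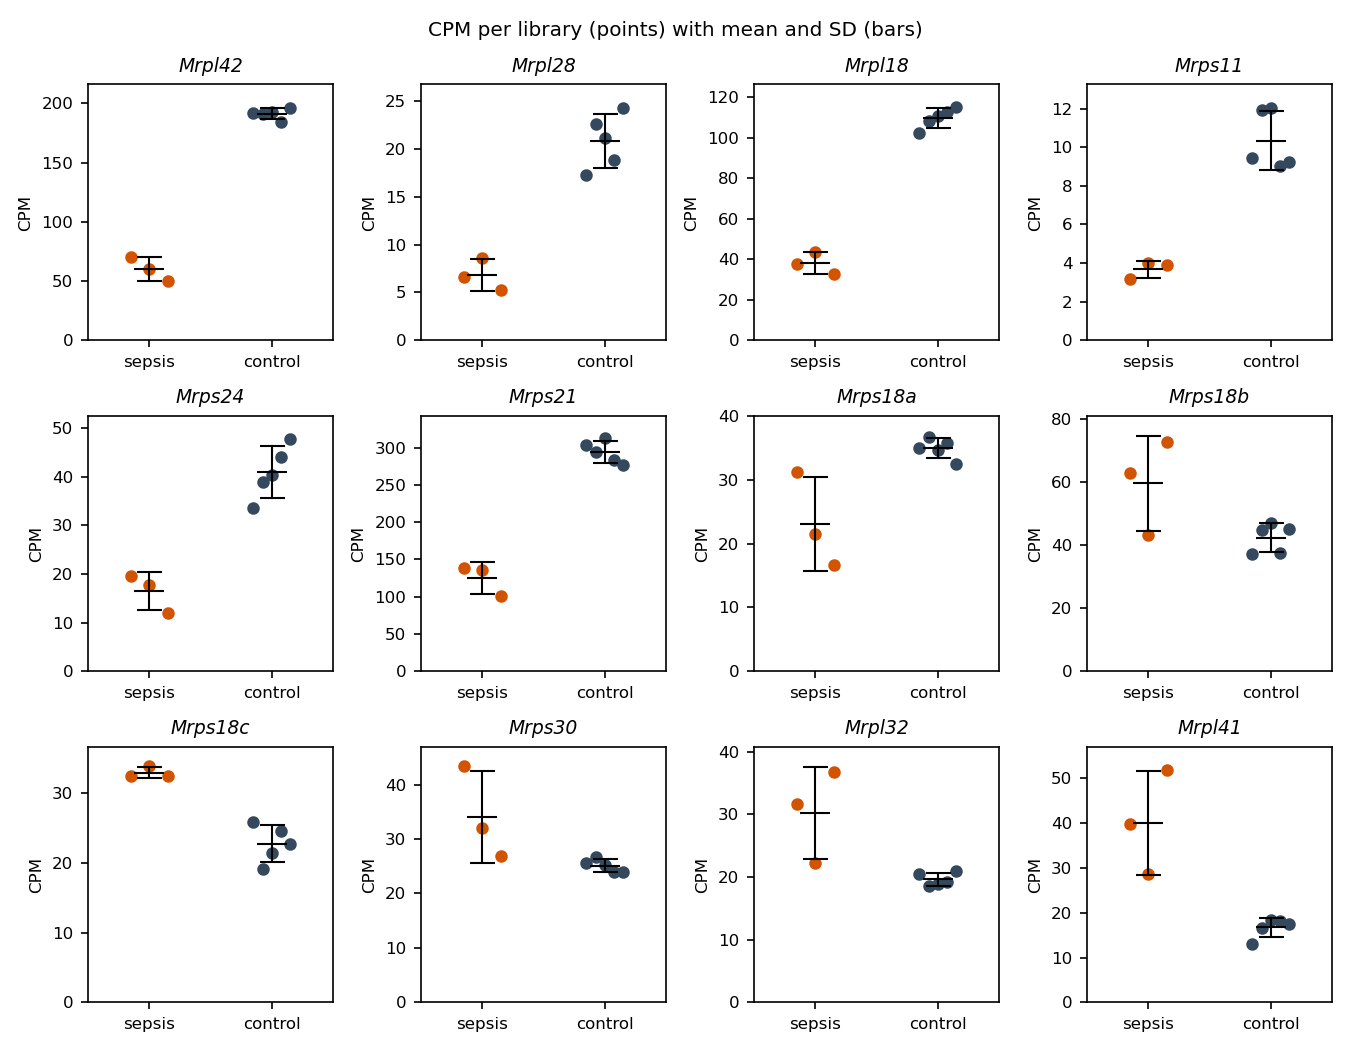
CPM (vertical axis, from 0) in each library of 12 members, with sepsis (orange points) left of control (dark points), and bars of the mean and SD. Mrpl42, Mrpl28, Mrpl18, Mrps11, Mrps24 and Mrps21 show 3 sepsis points below all 5 control points, while Mrps18c, Mrps30, Mrpl32 and Mrpl41 show sepsis points above all controls and Mrps18b overlaps.

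Among the genes with a small subunit symbol, Mrps36 had the lowest value. It had 24.5, 15.8 and 24.7 CPM in sepsis and 62.7, 66.2, 62.0, 76.3 and 66.3 CPM in controls. No sepsis sample came near the controls, and the fall was 3.09-fold (log2 fold change -1.63, SE 0.17, edgeR adjusted p = 4.28e-06). Mrps36 carries the symbol of a ribosomal protein, but its product is now known as KGD4, a subunit that tethers parts of the 2-oxoglutarate dehydrogenase complex of the citric acid cycle, and it is absent from mitoribosome structures. The gene is therefore a member by symbol and is left out wherever subunits are given by structure.

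Mrps11, a platform protein of the small subunit where its bacterial relative S11 lines the exit path of the messenger, had 3.19, 3.99 and 3.88 CPM in sepsis and 9.44, 11.9, 12.1, 9.04 and 9.24 CPM in controls. The sepsis samples were all below the controls, at the lowest mean level of any member in sepsis (log2 fold change -1.47, SE 0.23, edgeR adjusted p = 0.000177). Mrps24, the counterpart of bacterial S3 at the entry of the messenger channel, had 19.7, 17.7 and 12.1 CPM in sepsis and 33.6, 38.9, 40.4, 44.1 and 47.8 CPM in controls. The groups were again separate, with a log2 fold change of -1.31 (SE 0.18, edgeR adjusted p = 6.37e-05). Mrps21, a homologue of bacterial S21 and the most abundant of all members in controls, had 138.3, 136.3 and 100.9 CPM in sepsis, against 303.7, 293.5, 312.9, 283.1 and 276.3 CPM in controls. Its fall was 2.35-fold (log2 fold change -1.23, SE 0.12, edgeR adjusted p = 4.27e-06).

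Mrps15, related to bacterial S15, an early binder of the small ribosomal RNA, had 27.4, 28.8 and 24.7 CPM in sepsis and 56.1, 55.9, 61.1, 66.5 and 66.0 CPM in controls. Mrps33, a protein without a bacterial counterpart, had 21.8, 26.3 and 13.2 CPM in sepsis and 40.0, 48.3, 51.5, 49.2 and 40.2 CPM in controls. Neither gene overlapped between the groups, and the log2 fold changes were -1.18 (SE 0.13, edgeR adjusted p = 8.88e-06) for Mrps15 and -1.16 (SE 0.20, edgeR adjusted p = 0.000339) for Mrps33. Mrps36, Mrps11, Mrps24, Mrps21, Mrps15 and Mrps33 were also lower by library totals, with log2 fold changes of -0.73 to -1.22. Mrps5, the counterpart of S5 and the third most abundant small subunit gene, had 39.9, 32.6 and 29.7 CPM in sepsis and 55.2, 58.4, 70.8, 62.9 and 65.3 CPM in controls (log2 fold change -0.88, SE 0.14, edgeR adjusted p = 0.000188). Mrps23, the second in abundance, did not pass. It had 73.7, 63.0 and 60.7 CPM in sepsis and 60.8, 61.5, 62.9, 69.4 and 61.2 CPM in controls, fully overlapping (log2 fold change 0.06, SE 0.12, edgeR adjusted p = 0.699, and 0.47 by library totals).

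Mrps12, the counterpart of S12 beside the decoding centre, had 40.7, 35.3 and 26.5 CPM in sepsis and 43.0, 46.8, 54.8, 48.1 and 47.2 CPM in controls. The groups were separate (log2 fold change -0.49, SE 0.15, edgeR adjusted p = 0.0168), but the call was lost without sepsis sample 3 (0.0602) and by library totals, where the log2 value was -0.07. Mrps14, the counterpart of S14 in the head of the subunit, had 24.5, 23.7 and 24.9 CPM in sepsis and 30.5, 37.4, 28.9, 36.9 and 27.7 CPM in controls. Its adjusted p of 0.0393 (edgeR, log2 fold change -0.40, SE 0.15) rose to between 0.0537 and 0.0964 without any sepsis sample or without control 2 or 4.

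The mouse has 3 Mrps18 genes, all related to bacterial S18, and the products of Mrps18b and Mrps18c belong to the small subunit while that of Mrps18a, known as mL66, sits in the large subunit. Mrps18a had 31.1, 21.4 and 16.7 CPM in sepsis and 35.0, 36.7, 34.6, 35.8 and 32.5 CPM in controls. It fell, with sepsis samples spread below a tight control group (log2 fold change -0.60, SE 0.18, edgeR adjusted p = 0.0142), but by library totals its log2 value was -0.19 with an adjusted p of 0.372. Mrps18c rose, with 32.5, 33.8 and 32.4 CPM in sepsis, against 25.8, 19.2, 21.4, 24.6 and 22.6 CPM in controls. Its 3 sepsis samples were nearly equal and above all controls, and the log2 fold change was 0.53 (SE 0.14, edgeR adjusted p = 0.00708). Mrps18b had 63.0, 43.3 and 72.8 CPM in sepsis and 37.2, 44.9, 47.0, 37.6 and 45.3 CPM in controls, the 1 member past the threshold whose groups overlapped (log2 fold change 0.49, SE 0.17, edgeR adjusted p = 0.0241). Its call was lost without sepsis sample 1 (0.0734), sepsis sample 3 (0.118), control 1 (0.0564) or control 4 (0.0546).

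Because the paralogs differed in direction, letters around the start of each are shown where a searched motif was found, as a description only. Sequences are from RefSeq's promoter table of the GRCm38.p6 build, written 5′ to 3′ on the strand of the gene, and positions count from 1 at the annotated start, with negative numbers upstream. Capitals mark CCGGAAG or its reverse complement CTTCCGG, a core bound by GABP and other ETS factors, and GCGCATG or CATGCGC, a part of the site of the respiratory factor NRF1. For Mrps18a the stretch is the 120 bases before the start, chr17:46110884-46111003 on the plus strand, and for the others it is the motif with 10 bases to each side.
Mrps18a, 120 bases before the start: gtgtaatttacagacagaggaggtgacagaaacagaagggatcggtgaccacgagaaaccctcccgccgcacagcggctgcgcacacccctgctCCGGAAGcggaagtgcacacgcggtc
Mrps18b, NRF1 core at -222, chr17:35916646-35916672, minus strand: cggcccgacgCATGCGCactgggagca
Mrps18b, NRF1 core at 30, chr17:35916395-35916421, minus strand: gtgtcccgagCATGCGCagtcgctctt
Mrps18c, ETS core at -156, chr5:100798593-100798619, plus strand: ggtcacgtgaCTTCCGGcccgggaagc
All 3 windows, which run from 250 bases before to 50 after the start, held an ETS core, that of Mrps18b at 44 and not printed. The window of Mrps18b alone among them held the NRF1 core. That of Mrps18a alone held AAGATGG, a core bound by the factor YY1, at 12 and not printed.

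Mrps30 is another gene whose symbol names the small subunit while its protein, mL65, sits in the large subunit. It had 43.4, 31.9 and 26.9 CPM in sepsis, against 25.5, 26.7, 25.3, 23.9 and 23.9 CPM in controls. Sepsis sample 3 lay just above the highest control (log2 fold change 0.44, SE 0.16, edgeR adjusted p = 0.0384). This call was lost without sepsis sample 1, where the log2 fold change was 0.23 and the adjusted p 0.247, and without any single control, with adjusted p of 0.0566 to 0.0762.

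The remaining 2 members that rose are large subunit proteins. Mrpl41, which has no bacterial counterpart, had 39.6, 28.6 and 51.8 CPM in sepsis and 13.1, 16.6, 18.4, 18.1 and 17.5 CPM in controls. All sepsis samples exceeded all controls, by 2.39-fold (log2 fold change 1.26, SE 0.19, edgeR adjusted p = 0.000141), and by library totals the log2 value was 1.66. It was the only member higher by at least 2-fold under TMM scaling. Mrpl32 is made with a presequence that the m-AAA protease removes before the protein can join the large subunit, a step described in yeast and mouse. It had 31.7, 22.3 and 36.8 CPM in sepsis and 20.5, 18.5, 19.0, 19.2 and 21.0 CPM in controls, with no overlap (log2 fold change 0.62, SE 0.17, edgeR adjusted p = 0.00902). Mrpl9, a homologue of bacterial L9, had 26.9, 14.3 and 31.7 CPM in sepsis and 17.8, 15.1, 12.1, 21.0 and 13.7 CPM in controls, where sepsis sample 2 lay within the control range (log2 fold change 0.61, SE 0.25, edgeR adjusted p = 0.0599). Without sepsis sample 2 it passed, at 0.00315, and without control 4, at 0.0391.

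Letters around the starts of the highest and the lowest member, and of Mrpl32, are set beside each other here from the same table. For Mrpl41 the 120 bases before the start are printed, chr2:24975099-24975218 on the minus strand, in which none of the 4 searched cores was found. Mrpl32 holds 5 NRF1 cores, at -205, -87, -84, -66 and -21, of which the overlapping pair and the core at -66 are printed. For Mrpl42 the stretch lies downstream of the start, around AAGATGG, the core bound by YY1, which Mrpl32 also holds, at -241.
Mrpl41, 120 bases before the start: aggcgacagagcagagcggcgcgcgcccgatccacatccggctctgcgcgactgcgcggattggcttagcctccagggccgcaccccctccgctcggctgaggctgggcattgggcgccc
Mrpl32, NRF1 core at -87, chr13:14613108-14613134, minus strand: tttgacccttGCGCATGcgcaagaggg
Mrpl32, NRF1 core at -66, chr13:14613087-14613113, minus strand: agaggggcctGCGCATGctctgagcga
Mrpl42, YY1 core at 28, chr10:95501906-95501932, minus strand: agattgaagcAAGATGGcgagcgcgcg
In the Mrpl32 stretch at -87 the letters that follow the capitals complete a second core on the opposite strand, at -84. The Mrpl41 stretch is 73.3% G and C.

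Of all genes tested, 25.2% were called lower and 25.2% higher. The large subunit held 24 lower calls among its 49 genes, 2 higher and 23 that did not pass, with a median log2 fold change of -0.34. The small subunit held 16 lower among 29, 3 higher and 10 that did not pass, with a median of -0.49. By library totals the medians were 0.08 for the large and -0.07 for the small subunit, with 9 lower and 11 higher large subunit genes and 9 lower and 7 higher small subunit genes. Under that scaling 14.1% of all genes were lower and 43.4% higher. Relative to all genes tested, the medians were -0.35 for the large and -0.51 for the small subunit under both scalings. These too could hardly have differed, since the scaling moves all genes nearly alike. When genes were placed by where their proteins sit in the structure, with Mrps18a and Mrps30 in the large subunit and Mrps36 in neither, the large subunit had 25 lower and 3 higher of 51 and the small subunit 14 lower and 2 higher of 26. Their medians were then -0.34 and -0.48. The difference between the subunits is a description and was given no test.

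Summed over genes, the large subunit had 1830, 1648 and 1604 CPM in sepsis and 2317, 2381, 2372, 2392 and 2348 CPM in controls. The small subunit had 909.4, 798.9 and 711.2 CPM in sepsis and 1171, 1225, 1255, 1253 and 1199 CPM in controls. Both sums were lower in every sepsis sample than in any control under TMM scaling. The ratio of large to small, which no scaling of libraries can alter, was 2.01, 2.06 and 2.26 in sepsis and 1.98, 1.94, 1.89, 1.91 and 1.96 in controls. The groups did not overlap, but sepsis sample 1 lay only slightly above the highest control. By structure the ratio was 2.35, 2.33 and 2.56 in sepsis and 2.15 to 2.27 in controls, again without overlap. Sums give most weight to abundant genes. Mrps21 alone gave 138.3, 136.3 and 100.9 CPM of the small subunit sum in sepsis, and 276.3 to 312.9 CPM in controls. The separation of the ratio leans on this gene and cannot be read as a shift of the whole small subunit.

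**Figure D3:**
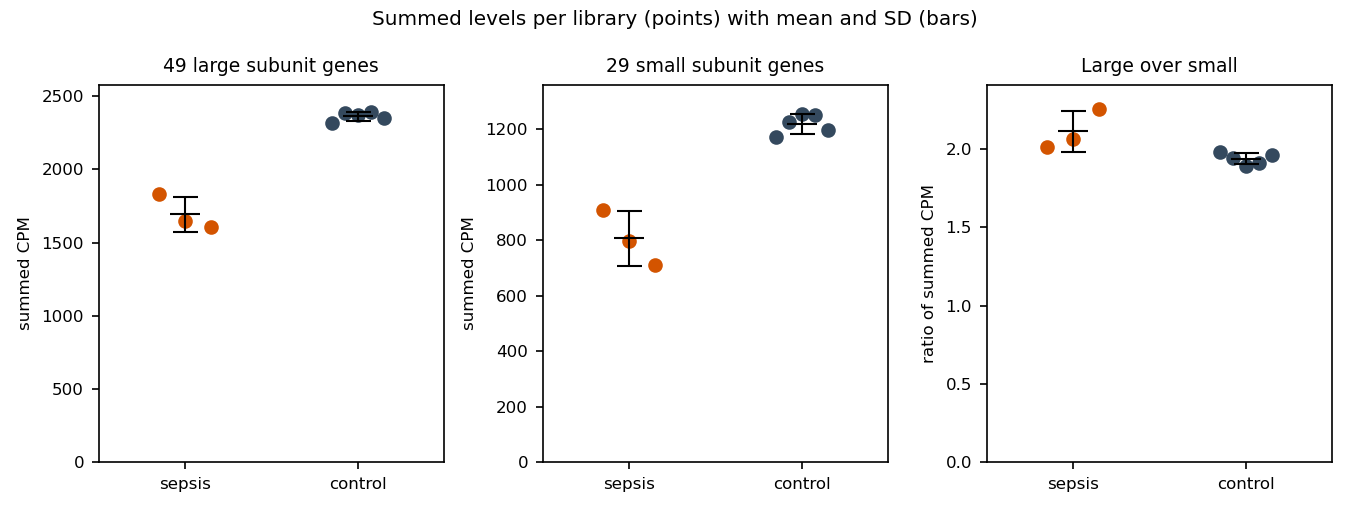
Summed CPM per library of the 49 large subunit genes (left), of the 29 small subunit genes (middle) and the ratio of the first sum to the second (right), with sepsis left of control and bars of the mean and SD, all axes from 0. Sepsis averaged 1694 ± 120 and control 2362 ± 29.9 CPM for the large subunit (SD, n = 3 and 5), and the ratio averaged 2.11 ± 0.13 in sepsis and 1.94 ± 0.04 in controls. By library totals the members' median log2 fold change was 0.03 and not below 0. The ratio leans on Mrps21, the most abundant small subunit gene.

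Members were compared by whether their universal ribosomal protein names class them as having a bacterial counterpart. By these names Mrps18a and Mrps18b count as without one, although both are related to bacterial S18. The 46 members with a bacterial counterpart had 23 lower, 2 higher and 21 that did not pass, with a median log2 fold change of -0.37. The 31 without had 16 lower, 3 higher and 12 that did not pass, with a median of -0.38. The classes thus had nearly equal medians. Across all genes tested, 25.2% were called in each direction. Split further, the medians were -0.25 for 30 shared large subunit proteins, -0.37 for 21 mitochondrial large subunit proteins, -0.58 for 16 shared small subunit proteins and -0.42 for 10 mitochondrial small subunit proteins, with subunits by structure. By abundance, 15 of the 20 most abundant members were lower, against 9 of the 20 least abundant, which had fewer reads behind each value. Reads per library for a member ran from 12 to 1094, with a median of 110.

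Sepsis samples differed more among themselves than controls did. The median coefficient of variation over members was 17.8% in sepsis (n = 3) and 10.0% in controls (n = 5), beside 22.3% and 16.4% over all genes tested. Of the 40 members that fell, sepsis sample 3 was the lowest sepsis sample for 31, sample 2 for 6 and sample 1 for 3. Sepsis sample 3 also lay farthest from the controls on the first principal component of all genes, at 77.96, beside 62.9 and 48.7 for the other sepsis samples and -40.3 to -34.6 for controls. Mrps28, related to the bacterial S1 family, shows the spread, with 16.2, 9.03 and 4.79 CPM in sepsis and 23.3, 18.8, 21.7, 21.0 and 22.6 CPM in controls (log2 fold change -1.12, SE 0.29, edgeR adjusted p = 0.00612). Without any single sample, 37 to 41 members were called lower and 3 to 6 higher. Of the 40 that fell, 36 to 39 kept their call, and of the 5 that rose, 3 to 5. The higher count was 3 without sepsis sample 1 or without control 1.

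The mitoribosome also holds proteins whose symbols do not begin with Mrp, and 5 of these were followed. Ptcd3, an RNA-binding repeat protein at the messenger entry of the small subunit, had 14.9, 15.97 and 10.1 CPM in sepsis and 45.8, 39.9, 39.2, 42.3 and 32.8 CPM in controls. Its groups were far apart (log2 fold change -1.55, SE 0.18, edgeR adjusted p = 1.56e-05). Chchd1, a small subunit protein, had 45.2, 49.8 and 37.9 CPM in sepsis and 99.9, 120.2, 104.2, 109.9 and 106.4 CPM in controls (log2 fold change -1.29, SE 0.13, edgeR adjusted p = 3.94e-06). Gadd45gip1, a large subunit protein, was lower by a log2 fold change of -0.77 (SE 0.12, edgeR adjusted p = 0.000178). Dap3, a GTP-binding small subunit protein, and Aurkaip1, also of the small subunit, passed only narrowly, at edgeR adjusted p of 0.0405 and 0.0467. All 5 were lower under TMM scaling, beside 25.2% of all genes. For each, all sepsis samples lay below all controls, as for 24.3% of all genes. The calls of Dap3 and Aurkaip1 were lost without any single control. That of Dap3 was also lost without sepsis sample 3, and that of Aurkaip1 without any sepsis sample. By library totals Dap3 and Aurkaip1 had log2 fold changes of 0.00 and 0.14.

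Factors that work on the finished ribosome were followed as a separate list. Of 15 translation factors tested of 16 listed, 6 were lower, beside 25.2% of all genes, none was higher and 9 did not pass, with a median log2 fold change of -0.42, and -0.01 by library totals. Upward, edgeR also gave 0 at an unadjusted p under 0.05 and DESeq2 gave 0, while 3 were higher by library totals. Mtres1, a factor that rescues stalled mitoribosomes, had 17.8, 18.3 and 11.9 CPM in sepsis and 54.7, 50.2, 57.2, 58.2 and 51.0 CPM in controls. It was the lowest of the list, without overlap (log2 fold change -1.76, SE 0.16, edgeR adjusted p = 2.01e-06). Mtrf1l, a release factor that ends translation at stop codons, followed at -1.14 (SE 0.26, edgeR adjusted p = 0.00269). Mtfmt, which formylates the initiator methionine, was at -0.87 (SE 0.34, edgeR adjusted p = 0.0485). That call was lost by library totals (0.313), and without sepsis sample 1 or 3 or control 2, 3, 4 or 5, with adjusted p up to 0.177. Guf1, an elongation factor relative, was at -0.78 (SE 0.19, edgeR adjusted p = 0.00425), and its call was lost by library totals (0.119). The count of lower factors was 3 without control 3, control 5 or sepsis sample 3.

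For genes that build the ribosome, the shares of calls lay near or below the 25.2% of all genes called in each direction. Of 26 assembly and ribosomal RNA modification genes tested of 28 listed, 6 were lower, 4 higher and 16 did not pass, with a median log2 fold change of -0.20, and 0.22 by library totals. Afg3l2, a subunit of the m-AAA protease that processes Mrpl32, had 56.4, 48.1 and 79.0 CPM in sepsis and 25.5, 25.7, 25.9, 21.3 and 23.9 CPM in controls. Every sepsis sample was well above the controls (log2 fold change 1.32, SE 0.16, edgeR adjusted p = 2.23e-05). Malsu1, which keeps an immature large subunit from joining the small one, had 99.7, 91.8 and 119.6 CPM in sepsis and 46.1, 48.97, 43.1, 50.6 and 56.7 CPM in controls (log2 fold change 1.08, SE 0.13, edgeR adjusted p = 1.72e-05). The helicase Ddx28 rose by 0.71 (SE 0.21, edgeR adjusted p = 0.0117) and Rcc1l, a large subunit assembly factor, by 0.58 (SE 0.22, edgeR adjusted p = 0.0415) on the log2 scale. The call of Rcc1l was lost without sepsis sample 1 or 3 or without control 1, 2 or 4.

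On the lower side were the GTPases Gtpbp10 and Mtg1, the RNA methyltransferase Mrm1 and Ybey, which matures the small subunit. Their log2 fold changes were -1.26 (SE 0.40), -1.07 (SE 0.24), -1.06 (SE 0.31) and -1.03 (SE 0.29), with edgeR adjusted p of 0.0187, 0.00242, 0.0113 and 0.00967. These are rare transcripts, with means of 2.29 to 4.42 CPM in sepsis and 5.39 to 9.29 CPM in controls, and Gtpbp10 was no longer called without sepsis sample 3 (0.0704). The number of assembly genes called lower was 10 without sepsis sample 2 and 3 without sepsis sample 3.

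Among 12 genes of mitochondrial transcription and RNA processing, 1 was lower, 2 were higher and 9 did not pass, below the 25.2% of all genes called in each direction, with a median of 0.10, and 0.51 by library totals. Lrpprc, which stabilises messenger RNAs inside mitochondria, had 47.9, 72.1 and 27.4 CPM in sepsis and 199.6, 191.8, 193.0, 195.3 and 135.1 CPM in controls. The groups stayed separate although both contained a low sample, and the fall was 3.72-fold (log2 fold change -1.89, SE 0.28, edgeR adjusted p = 0.000279). Elac2, which trims transfer RNA ends, was at 0.79 (SE 0.23, edgeR adjusted p = 0.0127), lost without sepsis sample 1. Hsd17b10, a subunit of mitochondrial RNase P, was at 0.53 (SE 0.17, edgeR adjusted p = 0.0198), lost without sepsis sample 3. The count of lower genes was 2 without sepsis sample 1.

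Most of the messages these ribosomes read were lower too. Of the 13 messenger RNAs of the mitochondrial genome, 12 fell by edgeR, beside 25.2% of all genes. None rose by edgeR, also at an unadjusted p under 0.05, or by DESeq2. The 13 had a median log2 fold change of -0.98, and -0.56 by library totals. The 1 that did not fall was mt-Co1, at -0.09 (SE 0.14, edgeR adjusted p = 0.609) with overlapping groups. By library totals mt-Co1 was higher, at 0.32 (edgeR adjusted p = 0.0283). The lowest encode subunits of complex I, with mt-Nd2 at -1.66, mt-Nd1 at -1.46, mt-Nd4 at -1.27, mt-Nd4l at -1.13 and mt-Nd3 at -1.10. Other complex I messages fell less, with mt-Nd6 at -0.90 and mt-Nd5 at -0.49. By library totals mt-Nd5 did not pass (edgeR adjusted p = 0.426). Between mt-Nd3 and mt-Nd6 lay mt-Co2 at -1.01, mt-Atp6 at -0.98 and mt-Co3 at -0.96. No row of the table matched the mitochondrial ribosomal RNAs, so the RNA of the particle was not analysed here.

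**Figure D4:**
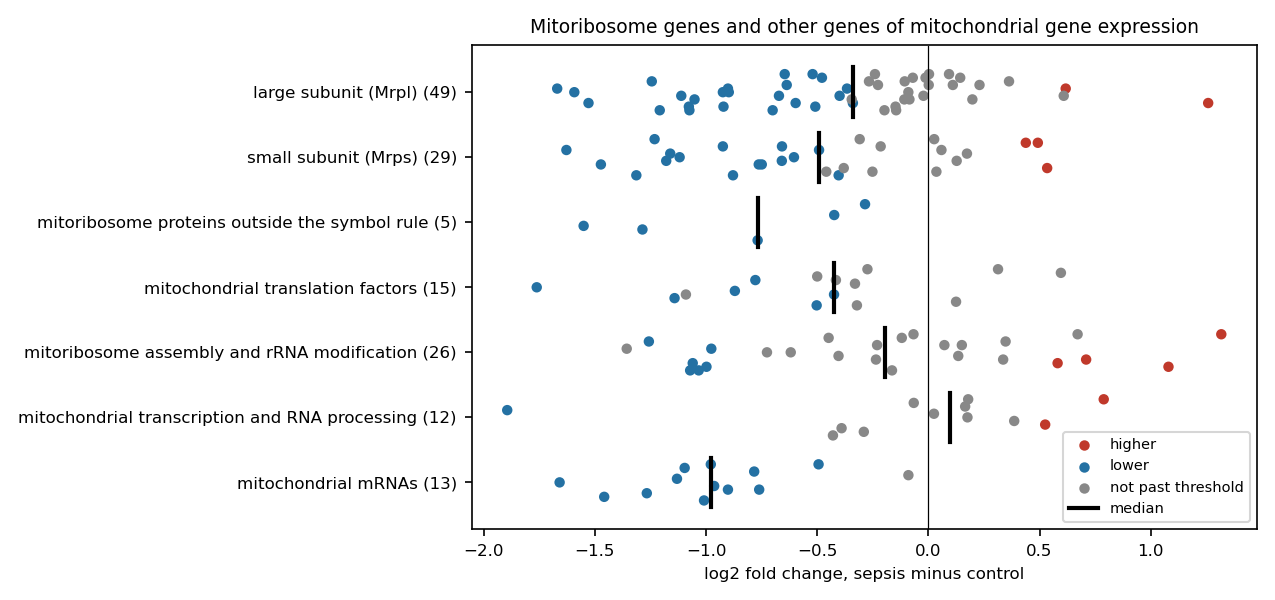
Log2 fold change (sepsis minus control, TMM scaling, horizontal axis) of every tested gene in the large and small subunits and in 5 further lists of mitochondrial gene expression, 1 point per gene, with the median as a black bar. Both subunits and the mitochondrial messenger RNAs centre below 0, at -0.34, -0.49 and -0.98, while assembly genes lie on both sides. By library totals the large subunit and assembly medians were above 0, at 0.08 and 0.22.

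Cores of factors known to drive mitochondrial genes were counted in promoters of the same RefSeq table, in which 69 members matched with 75 windows of 250 bases before to 50 after the start. A core was counted on either strand. CCGGAAG was in 26 of the 69 member genes (37.7%), beside 21.6% of tested genes with a window, and 8.86% of all 32851 windows. It was in 14 of 34 members that fell, 2 of 5 that rose and 10 of 30 that did not pass. AAGATGG was in 13 of 69 (18.8%), beside 8.99% of tested genes, with 9 of 34 lower, 1 of 5 higher and 3 of 30 others. GCGCATG was in 8 of 69 (11.6%), beside 8.59% of tested genes, with 2 of 34 lower, 2 of 5 higher and 4 of 30 others. AAGGTCA, a core of the oestrogen-related receptors, was in 4 of 69 (5.8%), beside 3.78% of tested genes. A match is a run of letters and not a bound site.

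Many mitoribosome genes start back to back with another gene. In the GENCODE M21 annotation, 33 members have a protein-coding partner that starts within 1000 bases on the other strand, and 24 such pairs were tested on both sides. In 1 case both genes are members. Mrpl46, a central protuberance protein, and Mrps11 both fell, and they overlap on opposite strands in that annotation, while their RefSeq starts leave 41 bases between them. Mrpl46 had 5.05, 9.45 and 9.82 CPM in sepsis, against 17.2, 16.6, 18.7, 17.0 and 16.9 CPM in controls (log2 fold change -1.07, SE 0.22, edgeR adjusted p = 0.0011). The stretch between the RefSeq starts is shown because both genes share it, and it runs along the plus strand of chr7:78783090-78783130 in GRCm38.p6.
Between the RefSeq starts of Mrpl46 and Mrps11: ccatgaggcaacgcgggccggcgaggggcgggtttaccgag

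For the 11 members that fell and have a tested partner, 3 partners were lower, 3 higher and 5 did not pass, where 25.2% of all genes were called in each direction. Mrpl46 and Mrps11 are 2 of those 3 lower partners, and the other is Cyb5rl, a gene of the cytochrome b5 reductase family beside Mrpl37, at -1.86 (edgeR adjusted p = 0.00232) with Mrpl37 at -0.67, a call lost by library totals (0.0658). For the 11 members that did not pass, 3 partners were lower, 2 higher and 6 did not pass, and for the 3 that rose, 2 were higher and 1 did not pass. Mrpl32 starts beside Psma2, a proteasome subunit, which rose with it, at 353.1 ± 79.0 CPM in sepsis and 115.5 ± 7.53 CPM in controls (SD, n = 3 and 5, log2 fold change 1.61, edgeR adjusted p = 9.69e-07). Mrpl41 starts beside Pnpla7, a lysophospholipase, at 32.7 ± 5.07 CPM in sepsis and 16.9 ± 1.99 CPM in controls (log2 fold change 0.94, edgeR adjusted p = 0.000298). The 3 partners that rose beside a member that fell were as follows. Mrpl18 is paired with Tcp1, a chaperonin subunit, at 0.47, Mrpl48 with Rab6a, a Golgi GTPase, at 0.55, and Mrpl49 with Fau, which encodes a protein of the cytosolic ribosome, at 0.66. Their edgeR adjusted p were 0.00268, 0.0018 and 0.000172. Mrpl49 itself had 6.38, 12.2 and 3.20 CPM in sepsis and 15.5, 14.8, 16.6, 13.4 and 17.2 CPM in controls, where sepsis sample 2 came close to the controls. Its log2 fold change of -1.08 (SE 0.32, edgeR adjusted p = 0.0127) was -1.71 without sepsis sample 2, and by library totals it was -0.64 and not past the threshold (0.132). Of the 3 lower partners of members that did not pass, 2 encode complex I subunits. Mrpl47, near 0 itself, starts beside Ndufb5, which fell at -1.14 (edgeR adjusted p = 2.45e-05). Mrpl36, at -0.15, starts beside Ndufs6, which fell at -1.12 (edgeR adjusted p = 6.65e-06).

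Reads of some members cannot be separated from those of overlapping genes, since the strand setting of the counting was not given in the sources used here. In GENCODE M21, 23 members overlap a protein-coding gene on the opposite strand, 4 overlap such a gene on the same strand, and the 3′ ends of 10 lie inside an opposite gene. Of the members named above, Mrpl24, Mrpl33, Mrpl40, Mrpl47, Mrpl49 and Mrps18a are among those 10. Several members overlap the partner gene set beside them, Mrpl18 with Tcp1, Mrpl48 with Rab6a, Mrpl47 with Ndufb5, Mrpl36 with Ndufs6, and Mrpl46 with Mrps11. On the same strand, Mrpl53 and Mrps24 each overlap another gene. No row of the table was a pseudogene named after a member, although 5 are annotated, so reads from such copies and from the parent cannot be told apart here.

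**Figure D5:**
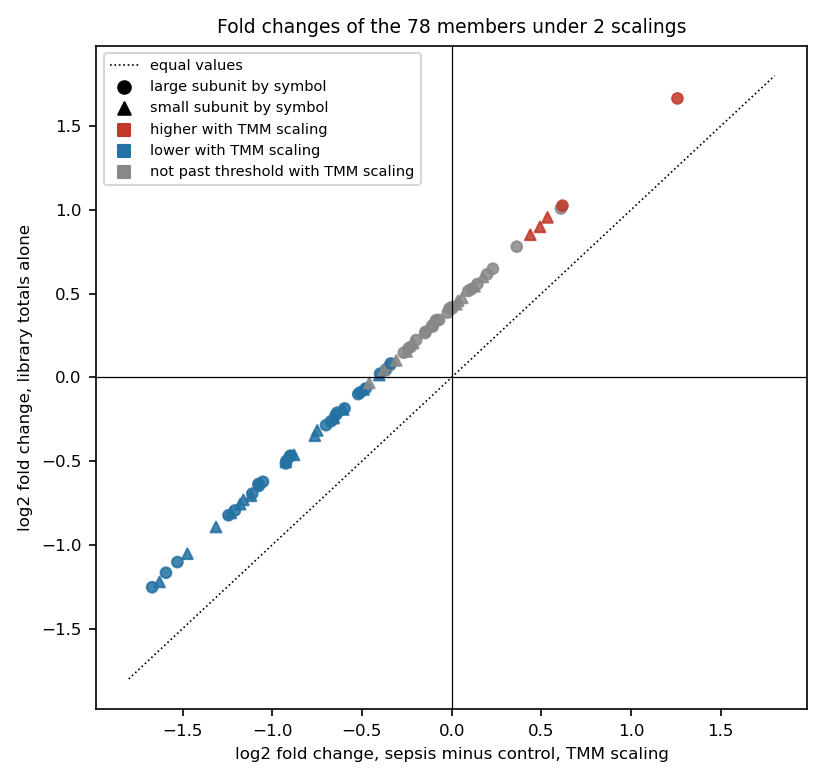
Log2 fold change (sepsis minus control) of each of the 78 members by TMM scaling (horizontal axis) and by library totals alone (vertical axis), with circles for large and triangles for small subunit symbols. All points lie above the dotted line of equal values, and the members' median moves from -0.39 to 0.03. The points keep close to a single line because a change of scaling moves all genes by nearly the same amount.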

How the data were processed

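Per the labels' protocols, RNA was purified on RNeasy columns and 25 ng entered the QuantSeq 3′ library kit. The authors deposited raw counts per gene, 1 column per library, and per the submitters' processing notes the build was GRCm39. The aligner, counter, strand setting and annotation are not given in the sources used here. Of 25655 rows, 9287 had no reads. In R 4.3.3, edgeR 4.0.16 kept 9810 genes (minimum count 10, minimum total 15), scaled by TMM, and fitted a robust quasi-likelihood model to all 8 libraries without covariates. P-values were Benjamini-Hochberg adjusted over all genes tested, with a threshold of 0.05. The SE is the absolute log2 fold change over the square root of F. After TMM scaling 1 read stood for a mean of 0.235 CPM in sepsis and 0.315 in controls. Mean TMM factors were 1.2 in sepsis and 0.898 in controls, while mean total reads were 3596000 and 3581000. The procedure was tested on simulated data. No set test was run.

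The members and lists were chosen with earlier results of these data known. The named genes are all members that rose, the 6 largest falls and 4 most abundant per subunit, the 4 values nearest 0, the Mrps18 paralogs, Mrps30, Mrps36, Mrpl10, Mrpl11, Mrpl12, Mrpl45, and up to 4 per direction in each list. Named after their values were seen were Mrpl9, Mrpl22, Mrpl23, Mrpl24, Mrpl36, Mrpl37, Mrpl46, Mrpl49, Mrpl52, Mrpl58, Mrps12, Mrps14, Mrps28, Tcp1, Rab6a, Fau, Psma2, Pnpla7, Ndufs6, Ndufb5 and Cyb5rl. Alternatives were library totals, relative log expression factors, DESeq2 1.42.0, no filter, a replicate block and leaving out each sample. GRCm38.p6 coordinates come from the RefSeq tables and are not those of the counts' build.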

Additional observations from a re-analysis of the deposited data

Results flagged for a closer look

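Of 81 sets of 5 control values tested, 4 held a sample set apart from the rest, where chance sets apart about 1 in 20. Mrpl46 was at 18.67 CPM in control 3, above 16.64 to 17.21 CPM in the other controls. Mrps23 was at 69.43 CPM in control 4, above 60.79 to 62.94 CPM. Tcp1, the partner gene of Mrpl18, was at 91.49 CPM in control 4, below 104.6 to 107.0 CPM. Lrpprc was at 135.1 CPM in control 5, below 191.8 to 199.6 CPM.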

How the results depend on the processing

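By library totals, all genes gave 4256 higher and 1387 lower calls. Members gave 18 lower and 18 higher, and 18 each way without overlap. The large subunit gave 9 lower and 11 higher, the small 9 and 7, bacterial counterparts 13 and 11, and mitochondrial proteins 4 and 7. Medians were 0.0324 for members, 0.0824 for the large and -0.0733 for the small subunit. Lower calls were 3 outside the symbol rule, 2 for translation factors and 1 for assembly, and higher calls were 3 for translation, 7 for assembly, 6 for transcription and 1 for mitochondrial messengers. The sign changed for 22 members, and among the named genes the values were 0.14 for Aurkaip1, 0.0004 for Dap3, 0.22 for Mrpl22, 0.0213 for Mrpl23, 0.41 for Mrpl40, 0.272 for Mrpl36, 0.39 for Mrpl47, 0.0824 for Mrpl52, 0.0466 for Mrpl53 and 0.013 for Mrps14. The construction of that scaling moves all genes together. DESeq2 and no filter each gave 3 lower calls outside the symbol rule and 3 for translation factors, with Mrpl40 at 0.0086 and 0.0168 and Mrpl47 at 0.0029 and 0.0107.

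Replicate numbers did not pair the samples, with correlations of -0.124, 0.041 and -0.020 between same-numbered samples. The replicate block used only replicate numbers present in both groups, so it also left out the controls without a same-numbered sepsis sample. The effects of the block and of fewer controls cannot be told apart. With the replicate block, members gave 30 lower and 2 higher, the small subunit 0 higher, bacterial counterparts 1 higher, mitochondrial proteins 10 lower and 1 higher, proteins outside the symbol rule and translation factors 3 lower each, and assembly 1 lower and 2 higher. Mrpl1 was at -0.0579 and Mrpl35 at -0.0639.

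Leaving out 1 sample at a time gave 5 to 10 members higher without overlap, 2 to 4 higher in the large and 1 to 3 in the small subunit, 3 to 6 in all, 2 to 4 with a bacterial counterpart and 1 to 3 without. It gave 3 to 4 lower outside the symbol rule, 3 to 6 lower and 0 to 1 higher translation factors, 3 to 10 lower assembly genes, and 1 to 2 in either direction for transcription. The value crossed 0 for 13 members, among the named ones at -0.10 to 0.17 for Mrpl1, -0.0341 to 0.0627 for Mrpl35, -0.0913 to 0.11 for Mrpl40, -0.18 to 0.10 for Mrpl47 and -0.034 to 0.11 for Mrps23. Relative log expression factors moved 1 named call. The cause of other changes was not tested.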
